A study of Danio rerio with 20 samples.

Results

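Brains of adult *rnaset2* mutants were compared with brains of adult WT siblings, with 3 mutant and 3 WT samples chosen by their labels from the 20 arrays of the series. All 6 samples came from zebrafish of 1 year, and RNA was taken from whole dissected brains. The labels call the fish *rnaset2* mutant or wild type, and the study's text gives the allele as AO127, a chemically induced mutation. The other arrays hold whole embryos of both genotypes at 28 hpf (4 and 4) and 3 dpf (3 and 3). They are used here only to place the adult brain values. The study's text says that embryos were pooled for RNA, so the spread between embryo arrays is a spread between pools. The study's text calls the arrays of a stage biological repeats, and the p-values cover the spread between them. Neither source gives the number or sex of the brains in a sample. A brain below therefore means 1 adult sample, and a spread between brains is a spread between such samples. The 28 hpf replicates are numbered 1, 1.1, 2 and 3 in each genotype, and the labels do not say whether 1.1 repeats replicate 1, so n = 4 at that stage may be 3 samples. The r of arrays 1 and 1.1 was 0.996 in mutants, where other pairs ran from 0.99397 to 0.99569. In WT siblings it was 0.99425, where other pairs ran from 0.99207 to 0.99415. This pair was thus the closest of its group in both genotypes, by a small margin. The study's text also says that the AO127 line was lost, and that a second allele was made to replace it.

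The *rnaset2* gene encodes a secreted and lysosomal ribonuclease of the T2 family, which cuts single-stranded RNA under acid conditions. In zebrafish and other organisms its loss leaves ribosomal RNA undigested in lysosomes. In humans, loss of RNASET2 causes a leukoencephalopathy of infancy, a disease of the white matter that resembles a congenital cytomegalovirus infection. Microglia, the phagocytes of the brain, digest dying cells in their lysosomes. The comparison of mutant and WT brain asks which transcripts differ in the mature brain when this enzyme is missing.

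Values are normalized fluorescence intensities of 43603 probes. The files and gene tables used here do not pair these probes with genes. The level of *rnaset2* itself, markers of brain cell types and pathway lists could therefore not be read, and the labelled tissue was not checked against markers. Results are given by probe, and probes of the same gene are counted separately. In bulk tissue, fewer cells of a type and less RNA per cell cannot be told apart.

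The mutant brains resembled each other more than they resembled WT brains. Over all probes, Pearson's r of log2 intensity ran from 0.988 to 0.989 among mutants, from 0.985 to 0.989 among WT siblings and from 0.974 to 0.975 across genotypes. These correlations are across probes, which share arrays and a common normalization. The first principal component of the 6 arrays held 51.0% of the variance, with every mutant brain at 68.9 or above and every WT brain at -67.6 or below. The second held 15.8% and set WT replicate 1, at 78.9, apart from the other 5 brains, which lay between -40.5 and 1.67. WT replicate 1 also had 127 probes over 4-fold above all 5 other brains, against 49 to 81 for the others. Mutant replicate 1 had the most probes over 4-fold below all other brains, 40 against 11 to 21. None of the probes by which 1 brain rose above the rest in this way was among the probes called below. Such a spread within a genotype itself makes a call unlikely, so this does not show that single brains left the calls unaffected.

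In adult brain, 7014 of 43603 probes (16.1%) differed by genotype at an adjusted p under 0.05 from limma fitted on these 6 arrays alone. Of these, 3702 (8.49% of all probes) were higher in mutants and 3312 (7.6%) were lower. All 3 mutant brains lay on one side of all 3 WT brains for every probe called. The same separation was found for 39.8% of all probes, with mutants above in 20.1% and below in 19.7%, so 10319 separated probes were not called. At an unadjusted p under 0.05 there were 14231 probes. The log2 change had a median of -0.01 over all probes.

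The number of calls was lower whichever brain was left out. It was 3391, 3822 and 2858 without mutant replicates 1, 2 and 3, and 4270 and 4157 without WT replicates 2 and 3. Without WT replicate 1, the array that stood apart, it was 5004. Of the 7014 probes, 39.0% stayed called without mutant replicate 3 and 61.4% without WT replicate 1, the lowest and highest of these shares. Each of these fits has 1 array fewer in a design of 6. The effect of that loss was not separated from the influence of a particular brain. A fit that shared the spread with the embryo arrays called 15469 probes, including 95.5% of the 7014.

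Most changes were modest in size. The median fold among probes called higher was 1.78, and 10% of them exceeded 3.88. Among probes called lower the median was 1.66-fold and the upper 10% exceeded 3.34-fold. The smallest fold called was 1.21 in both directions. At least 2-fold changes were called for 2540 probes (5.83% of all), of which 1486 were higher and 1054 lower. At least 8-fold changes were called for 112 higher and 102 lower probes, and at least 16-fold changes for 29 and 43. Dim probes carry many of these folds. On log2 of the intensity plus 50, which damps folds near the floor of the scale, 753 of the probes called higher and 513 of those called lower still differed by at least 2-fold, and 27 and 24 by at least 8-fold.

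**Figure D1:**
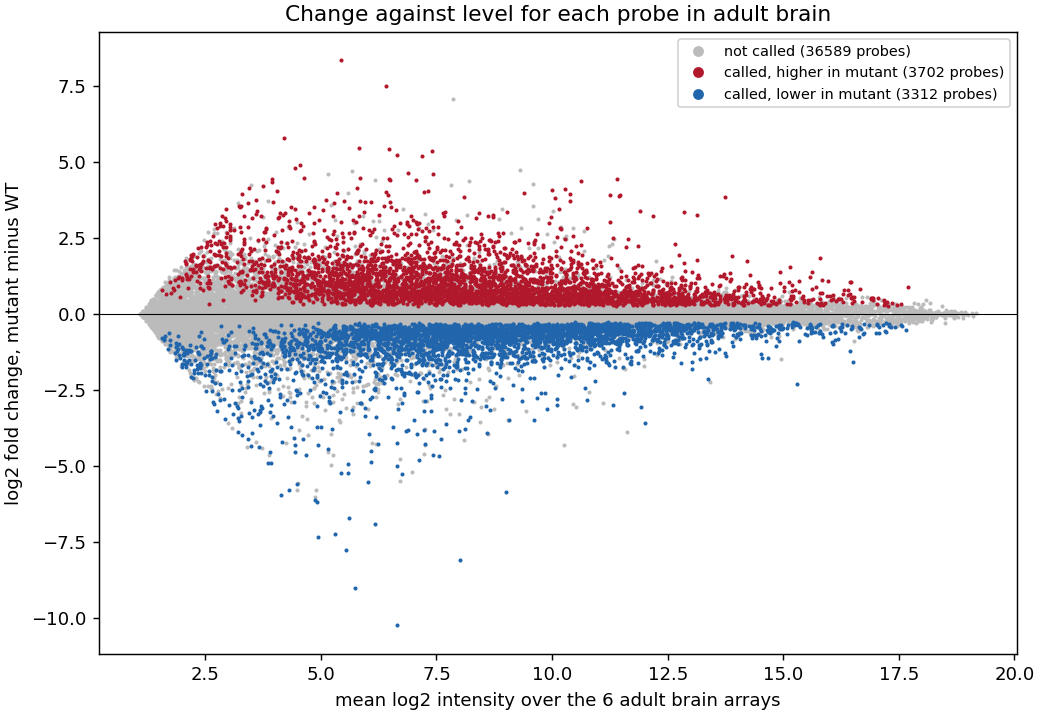
Log2 fold change of each probe (mutant minus WT, vertical) against its mean log2 intensity over the 6 adult brain arrays (horizontal), coloured by call. Calls lie on both sides of 0 at every level, 3702 higher and 3312 lower, and the largest folds belong to probes of low or middle level.

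Not every large difference between means was called. Of 292 probes with a mean difference of at least 8-fold, 78 were not called. In 27 of those the ranges of the 2 genotypes overlapped, and the median SD of log2 intensity in the more variable genotype was 2.89. Of all 4119 probes with a mean difference of at least 2-fold, 61.7% were called. Brain-to-brain spread was slightly wider in WT siblings, with a median SD of log2 intensity of 0.160 against 0.138 in mutants. The wider WT pairs were those with replicate 1. The SD of the log2 difference between 2 brains was 0.629 and 0.623 for WT replicate 1 against 2 and 3. It was 0.550 for WT replicates 2 and 3, and 0.528 to 0.553 among mutants. The SD was larger in WT for 55.5% of all probes. The SD exceeded 1 log2 unit for 1430 probes in WT and for 1127 in mutants.

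The share of probes called changed with their level. Probes were divided into 10 classes of equal size by mean intensity in adult brain. In the dimmest class, from 2.14 to 8.51, 5.62% were called. The share rose to 20.5% between 131 and 254 and was 14.0% in the brightest class, above 6697. The median SD of log2 intensity in mutants fell from 0.320 in the dimmest class to 0.075 in the brightest. The median absolute log2 fold change of the probes called fell from 1.53 to 0.53 over the same classes. Calls of at least 8-fold were most frequent between 8.51 and 28.9, with 71 probes.

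**Figure D2:**
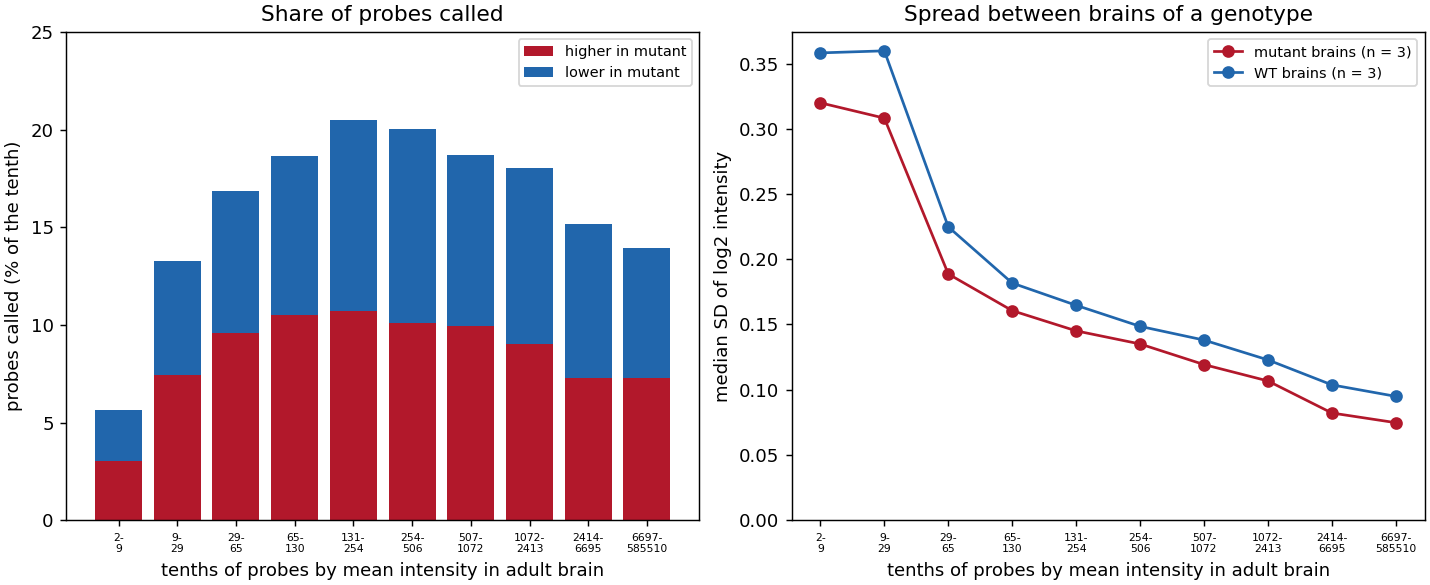
Left, percentage of probes called higher or lower in mutant brain in 10 classes of equal size by mean intensity; right, median SD of log2 intensity between the 3 brains of each genotype in the same classes. The share called peaks at 20.5% in the middle of the range, and WT brains have a wider median spread than mutant brains in every class. Over all probes, only the WT pairs with replicate 1 were wider apart than the mutant pairs.

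Individual probes were ranked by their change on log2 of the intensity plus 50, so that the floor of the scale does not set the order, and the first 2 in each direction are named. The largest rise was that of A_15_P197801. Its intensity was 8134, 20834 and 11836 in mutant replicates 1 to 3 and 523, 1380 and 264 in WT replicates 1 to 3. The lowest mutant brain lay well above the highest WT brain, although the brains of each genotype varied widely. The change in log2 intensity was 4.45 with a standard error of 0.67 (limma, adjusted p = 0.013), and 4.32 with 50 added to the intensity. Without mutant replicate 3 the adjusted p was 0.051.

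In embryos A_15_P197801 was dim in both genotypes. At 3 dpf its mean was 26.1 ± 1.53 (SD, n = 3) for mutant embryos and 12.5 ± 3.60 (SD, n = 3) for WT embryos. At 28 hpf the mutant mean was 28.8 ± 4.36 (SD, n = 4) and the WT mean 23.4 ± 4.86 (SD, n = 4). It was called higher in mutants at 3 dpf, with a log2 difference of 1.11 (limma, adjusted p = 0.0075), and at 28 hpf the log2 difference was 0.31 (limma, adjusted p = 0.18). This probe was thus bright in adult brain alone, with its highest levels in mutant brain.

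A_15_P170876 ranked next among the rises. It read 952, 1323 and 1180 in the mutant brains and 43.7, 2.37 and 2.35 in the WT brains. WT replicate 1 was the one WT brain above the floor of the scale, which is 2.14. The change was 7.51 log2 units with a standard error of 1.19 (limma, adjusted p = 0.015), and 4.23 with 50 added. The adjusted p was 0.052, 0.052 and 0.056 without mutant replicates 1, 2 and 3, and 0.00069 to 0.056 over all single brains left out. At 3 dpf all arrays of both genotypes were between 2.32 and 2.42, and at 28 hpf mutants were between 2.38 and 5.58. In WT siblings at 28 hpf 3 arrays were between 2.36 and 2.77 and replicate 1.1 read 197.

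The largest fall was that of A_15_P161626. It read 3.21, 2.64 and 2.75 in mutant brains and 4097, 2510 and 4035 in WT brains, so that mutant brains were close to the floor and WT brains far above it. The change was -10.24 log2 units with a standard error of 0.22 (limma, adjusted p = 0.00010), and -6.05 with 50 added. At 3 dpf the mean of the same probe was 101 ± 2.98 (SD, n = 3) for mutant embryos and 107 ± 31.2 (SD, n = 3) for WT embryos, and the log2 difference was -0.05 (limma, adjusted p = 0.85). The mutant embryos at 3 dpf therefore carried a signal that the mutant adult brains lacked. At 28 hpf the probe was called higher in mutants, with a log2 difference of 1.42 (limma, adjusted p = 0.0061). Its intensities there were low, 17.6 to 25.8 in mutant and 4.65 to 11.3 in WT embryos.

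A_15_P556147 was lower in mutants at all 3 stages. In adult brain it read 18.2, 13.3 and 15.5 in mutants and 4060, 4086 and 4543 in WT siblings. The groups were tight and far apart, and the change was -8.08 log2 units with a standard error of 0.13 (limma, adjusted p = 4.3e-05), or -6.02 with 50 added. At 3 dpf its mean was 185 ± 23.0 (SD, n = 3) for mutant embryos and 1317 ± 323 (SD, n = 3) for WT embryos. At 28 hpf the mutant mean was 102 ± 5.51 (SD, n = 4) and the WT mean 2023 ± 162 (SD, n = 4). The log2 fold change was -2.81 at 3 dpf and -4.31 at 28 hpf (adjusted p = 0.00010 and 6.8e-08 from limma on each stage alone). The fall in adult brain exceeded that at 3 dpf by a log2 of -5.28 and that at 28 hpf by -3.77 (adjusted p = 2.9e-11 and 2.8e-09 from limma on all 20 arrays). The probe was named for its adult fall, which favours such differences. That fit also takes its spread mostly from embryo arrays, so these adjusted p may be too small for adult brain. The mutant brains fell further below the mutant embryos than the WT brains rose above the WT embryos.

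**Figure D3:**
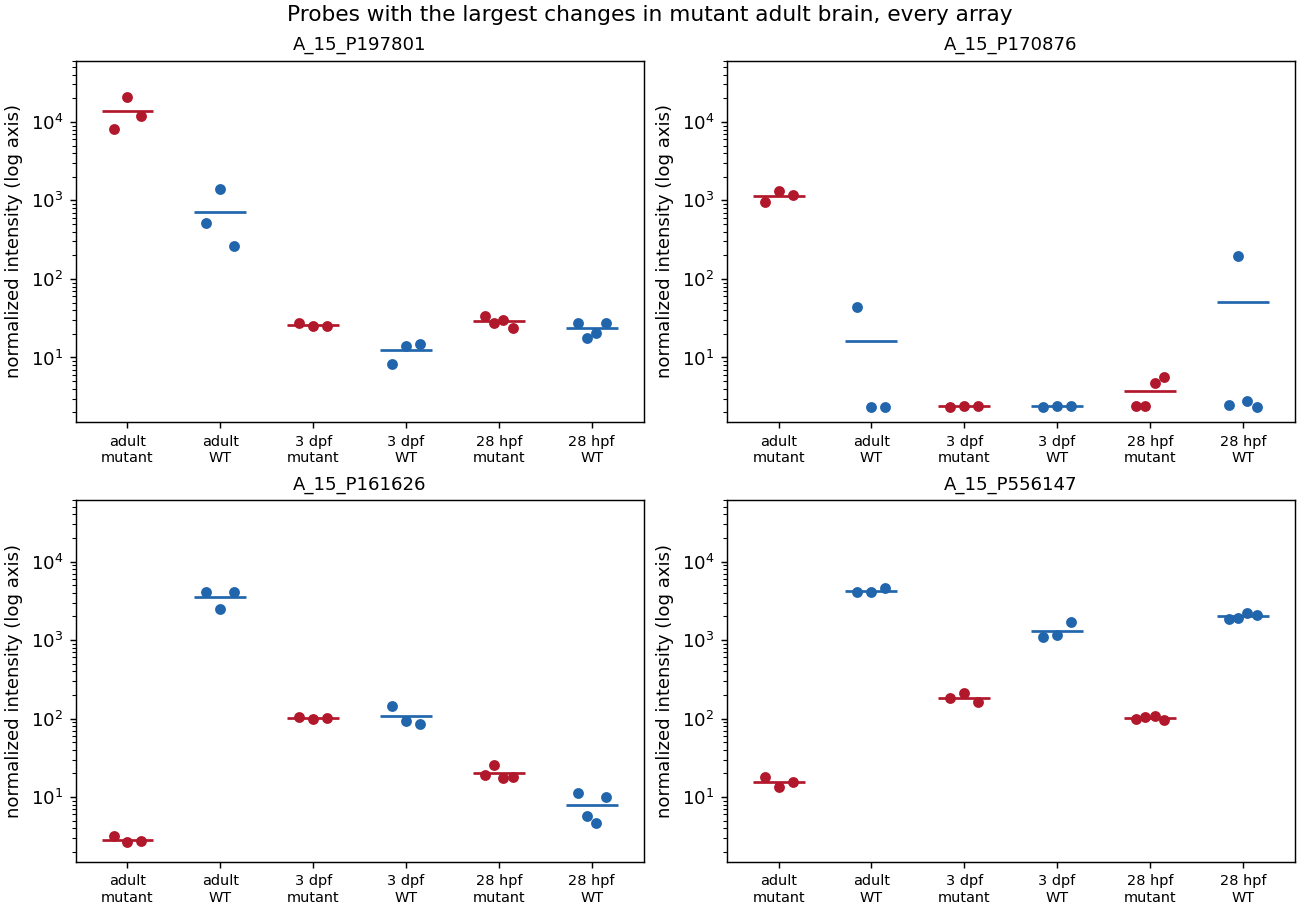
Normalized intensity on a log axis of the 2 probes with the largest rise (top) and the 2 with the largest fall (bottom) in mutant adult brain, for every array of the series; points are arrays and bars are group means (n = 3, or 4 at 28 hpf). The mutant and WT adult brains do not overlap for any of the 4 probes, while the embryo arrays of the 2 genotypes are close for A_15_P161626 at 3 dpf and apart for A_15_P556147 at both embryo stages.

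Large rises and large falls differed in where their dimmer genotype lay. Among the 20 largest rises, the highest WT brain exceeded an intensity of 100 for 14 probes and was under 50 for 5. Among the 20 largest falls, the highest mutant brain exceeded 100 for 4 and was under 50 for 12. The log2 fold changes spanned 3.34 to 8.34 in size for the rises and 3.49 to 10.24 for the falls. Their adjusted p from limma was between 3.2e-05 and 0.027 for the rises and between 4.3e-05 and 0.0067 for the falls. All mutant brains were under 10 for 6 of the falls, and all WT brains were under 10 for 1 of the rises. These lists were ranked by the difference itself, so the counts are a description.

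A small set of probes read near the floor in 1 genotype and above it in the other. For 19 probes all mutant brains were under 10 and all WT brains above 50, and for 8 probes the reverse held. The first set averaged a median of 246 in WT brains and the second a median of 116 in mutant brains. With the brighter genotype above 100 in every brain there were 13 and 4 such probes, above 200 there were 7 and 1, and with the dimmer genotype allowed up to 20 there were 37 and 29. These limits were chosen after the data were seen, and all 27 probes were called in adult brain, the contrast that chose them.

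The embryo arrays, which had no part in choosing these probes, gave the following readings. Of the 19 probes low in mutant brain, 17 were called lower in mutants at 3 dpf and none higher, where 30.8% of all probes were called lower. At 28 hpf 13 were called lower and 3 higher, where 20.5% of all probes were called lower. In 6 of the 19 the mutant embryos at 3 dpf were also all under 10 and the WT embryos all above 50, and in 1 this held at all 3 stages. Over all probes the pattern was found for 26 at 3 dpf and for 27 at 28 hpf. For that probe the mutant and WT means were 2.41 and 393 in brain. They were 2.31 and 114 in embryos of 3 dpf, and 2.40 and 198 in those of 28 hpf.

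Of the 8 probes low in WT brain, 3 were called higher in mutants at 3 dpf, where 23.8% of all probes were. None was called lower at 3 dpf, where 30.8% of all probes were. At 28 hpf 3 were called higher, where 22.9% of all probes were, and 1 lower, where 20.5% were. None of the 8 had all WT embryos under 10 and all mutant embryos above 50 at either stage. Of all probes, 85 showed that pattern at 3 dpf and 5 at 28 hpf. In 3 of the 8, every embryo array of both genotypes read under 10, so that the signal appeared in mutant adult brain alone. The brightest of these averaged 778 in mutant brain and 2.39 in WT brain.

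Other probes near the floor in mutant brain were bright in the embryos of both genotypes. One averaged 3.75 in mutant and 246 in WT brain, but 3493 and 6693 at 3 dpf and 2101 and 4678 at 28 hpf in mutant and WT embryos. Another averaged 2.66 and 84.2 in mutant and WT brain, and 491 and 1248 at 3 dpf. The mutant mean of both probes lay below the WT mean at each stage, by the largest fold in adult brain. The limits that chose these probes required a large fold in adult brain, so that order of folds is a description.

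**Figure D4:**
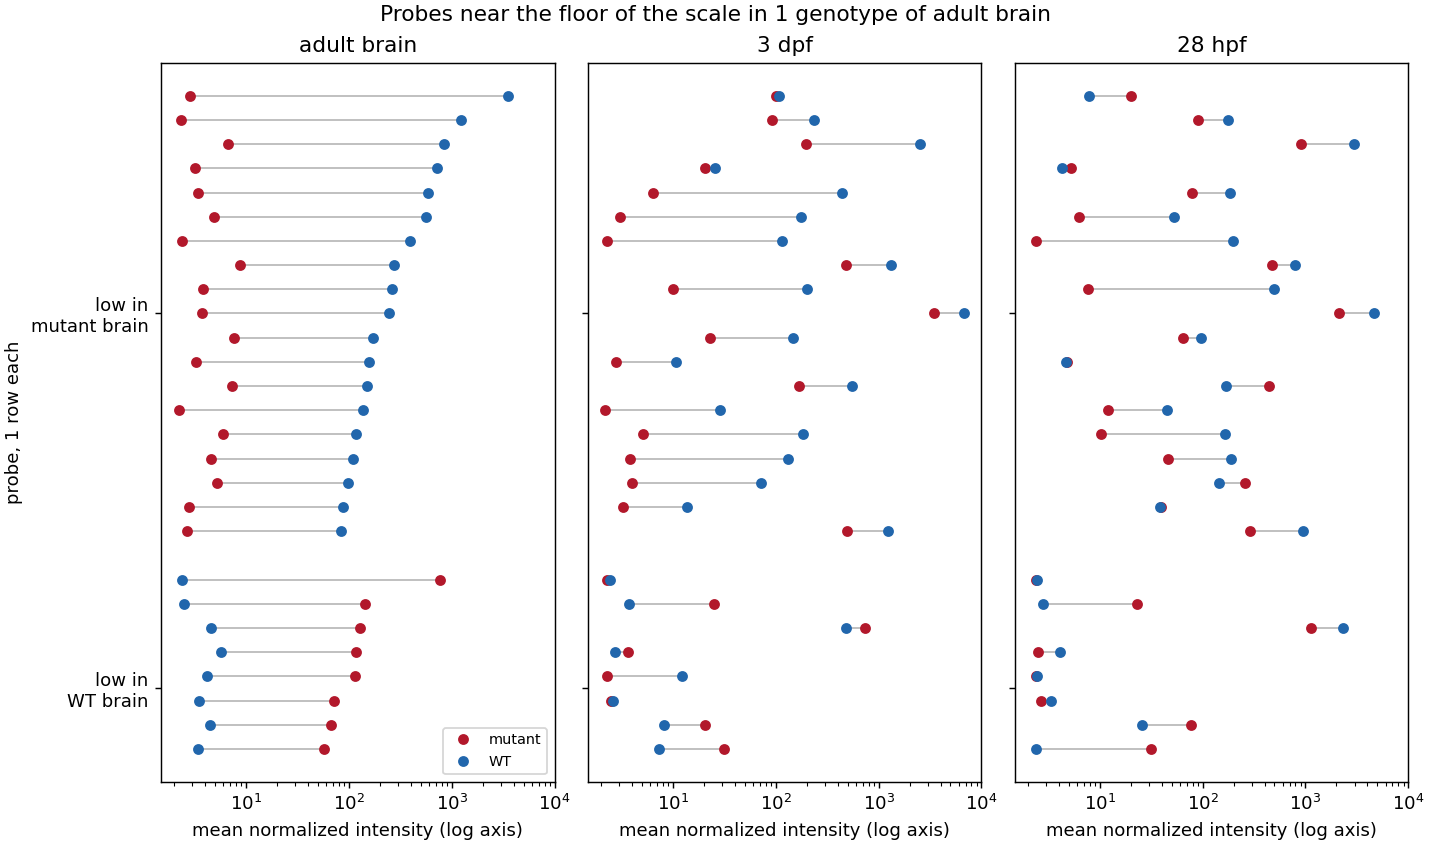
Mean normalized intensity on a log axis of the 27 probes that read near the floor in 1 genotype of adult brain, 1 row per probe, in adult brain (n = 3 per genotype), at 3 dpf (n = 3) and at 28 hpf (n = 4). In the upper 19 rows WT embryos mostly lie above mutant embryos at 3 dpf, while in the lower 8 rows several probes are near the floor in all embryos.

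Changes in mutant brain were next described by how bright a probe was in brain relative to embryos. The 6 adult brains and the 4 embryo conditions were averaged over both genotypes for this. Of 3450 probes at least 8-fold brighter in embryos, 440 (12.8%) were called higher in mutant brain and 166 (4.81%) lower. Rises were thus 72.6% of the calls in this class, against 52.8% of all calls. At least 2-fold changes in the class were 225 rises and 105 falls. These probes were dim in brain, with a median intensity of 29.4 against 1014 in embryos. The brain level that sets the class holds the mutant brains, so a probe that rises can leave the class and one that falls can enter it. With the level taken from WT brains alone rises were 80.8% of the calls, from mutant brains alone 55.9%, and 71.9% where each genotype on its own had to meet the limit. From mutant brains alone, changes of at least 2-fold were 166 rises and 173 falls.

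Some of these probes had a clear signal in brain. Of 953 such probes between 100 and 10000 in adult brain, 249 (26.1%) were called higher and 46 (4.83%) lower. Probes of the same brain level that were within 2-fold of the embryos were called higher in 7.09% and lower in 8.97%. The limits on level also use the mutant brains, in both of these classes. The class within 2-fold was not set by 1 genotype alone. Where each genotype on its own had to meet the limits of the embryo-bright class, 158 of 726 probes (21.8%) were called higher and 24 (3.31%) lower. Rises were 84.4% of the calls by the average of both genotypes, 85.9% by WT brains alone, 79.1% by mutant brains alone and 86.8% by each genotype on its own. The mean log2 intensity over the 953 probes was 8.70, 8.54 and 8.65 in mutant replicates 1 to 3. In WT replicates 1 to 3 it was 8.67, 8.26 and 8.25, so WT replicate 1 lay among the mutant brains. Calls of these 953 probes with single brains left out are not given.

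The share of rises in the embryo-bright class was 69.1% to 76.8% when single brains were left out, 66.5% with embryo levels taken from 3 dpf alone and 60.0% in the fit of all 20 arrays, where rises were 49.7% of all calls. Single brains differed in the level of the whole class. The mean log2 intensity over its 3450 probes was 5.20, 5.12 and 5.12 in mutant replicates 1 to 3, and 5.33, 4.99 and 5.00 in WT replicates 1 to 3. WT replicate 1 thus lay above all mutant brains and the other WT brains below them. Without it, 363 probes of the class were called higher and 152 lower, a share of 70.5%. Of the 127 probes by which WT replicate 1 exceeded all other brains over 4-fold, 92 were also over 4-fold brighter in embryos of 3 dpf than in those other brains. The same held for 33 of 63 such probes of mutant replicate 1, 14 of 81 of replicate 2 and 13 of 49 of replicate 3. In WT replicates 2 and 3 it held for 17 of 73 and 24 of 63. The part of this in the result was not tested.

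For probes brighter in brain than in embryos, the balance of rises and falls depended on which brains set the class. Of 2824 probes at least 8-fold brighter in brain, 335 (11.9%) were called higher and 297 (10.5%) lower in mutant brain. At 2-fold or more there were 213 rises and 61 falls. With the class set by WT brains alone the calls were 197 higher and 414 lower, with 106 and 128 at 2-fold or more. With the class set by mutant brains alone they were 540 and 245, with 380 and 42 at 2-fold or more. No direction is read from this class. Probes within 2-fold of the embryos were called least often, at 13.8%, with 1394 higher and 1607 lower.

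**Figure D5:**
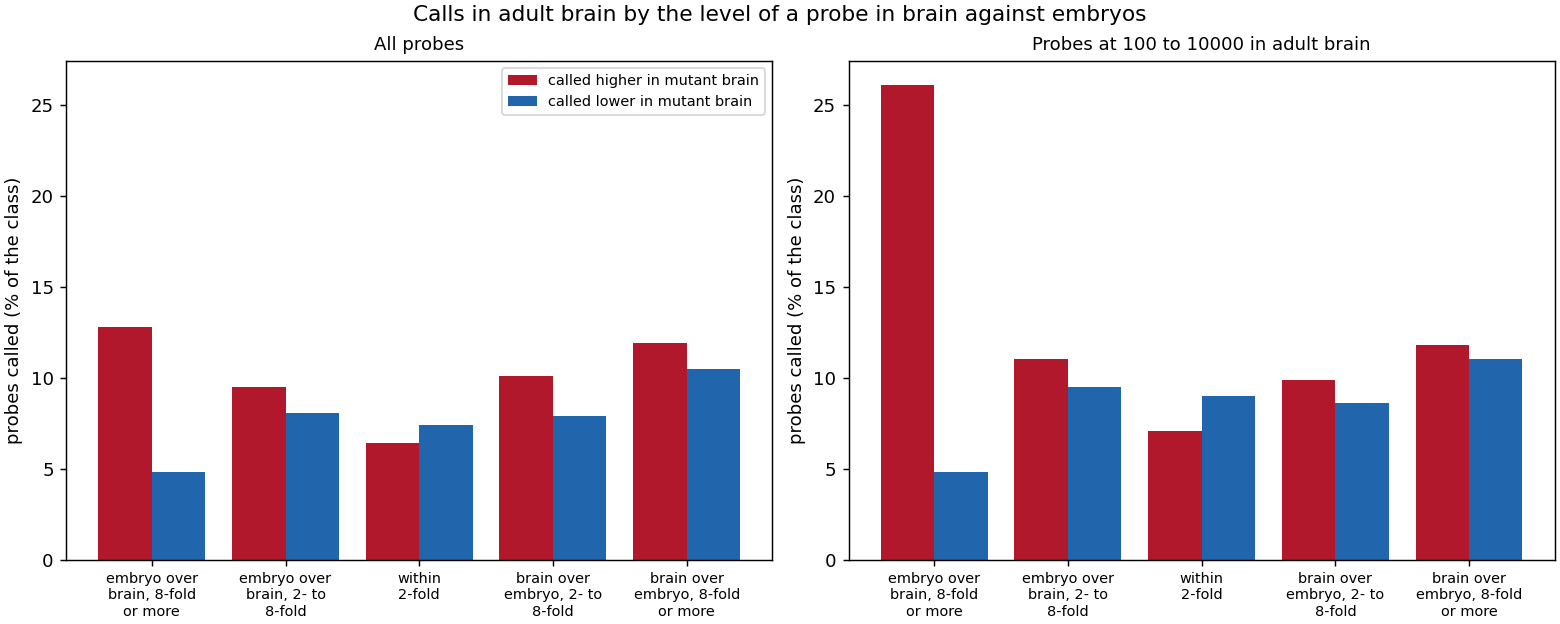
Percentage of probes called higher or lower in mutant adult brain, in 5 classes of the level in adult brain against that in embryos, for all probes (left) and for probes at 100 to 10000 in adult brain (right). Calls higher in mutant brain reach 12.8% of probes at least 8-fold brighter in embryos on the left and 26.1% on the right, against 4.81% and 4.83% for calls lower.

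The adult brain calls were then read in the embryo arrays, each stage fitted alone. Of the 3702 probes called higher in mutant brain, 35.8% were called higher at 3 dpf and 24.1% lower, where 23.8% and 30.8% of all probes were. At 28 hpf 37.2% were called higher and 15.7% lower, where 22.9% and 20.5% of all probes were. Of the 3312 probes called lower in mutant brain, 51.7% were called lower and 17.3% higher at 3 dpf, and 39.9% lower and 14.7% higher at 28 hpf. These backgrounds are over all probes and are not matched for level.

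The most strongly changed probes were read in the same way. Of 112 probes at least 8-fold higher in mutant brain, 45 (40.2%) were also called higher at 3 dpf and 31 (27.7%) at 28 hpf. Of all probes 23.8% and 22.9% were. Lower at these stages were 11 (9.82%) and 13 (11.6%), against 30.8% and 20.5% of all probes. At both stages 24 were called higher, a count with no share over all probes to set it against. At neither embryo stage were 47 (42.0%) called. Of 102 probes at least 8-fold lower, 69 (67.6%) were also called lower at 3 dpf and 55 (53.9%) at 28 hpf, against the 30.8% and 20.5%. Higher were 13 (12.7%) and 11 (10.8%), against the 23.8% and 22.9%. At both stages 47 were called lower, again with no such share. At neither stage were 13 (12.7%) called. Of all probes 29.0% were called at neither stage, and of all adult calls 22.4% of the rises and 17.5% of the falls. The background is unequal, since more probes were called lower than higher at 3 dpf, and the difference between rises and falls was not tested. With arrays 1 and 1.1 averaged, 26 of the rises and 55 of the falls were called in the same direction at 28 hpf. Of all 43603 probes, that fit called 7192 higher and 6800 lower, fewer than the fit behind the shares above.

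The difference of the effects was tested on all 20 arrays. The effect in adult brain differed from that at 3 dpf for 19261 probes (44.2%), from that at 28 hpf for 13902 (31.9%) and from both for 8410 (19.3%), at an adjusted p under 0.05 from limma. The adult arrays hold brain and the embryo arrays whole bodies, so age and tissue cannot be told apart in these differences. Among the probes called in adult brain, the effect differed from both embryo effects for 2087 of those higher and 1484 of those lower in mutants. These probes were chosen by their adult difference, so their share is not read against the background. This fit takes 1 spread per probe for all stages, and most of its arrays are of embryo pools. Within a genotype, r ran from 0.985 to 0.989 in adult brain and from 0.992 to 0.996 at 28 hpf. With array weights that allow 1 variance per group, 16350 probes differed from 3 dpf and 11099 from 28 hpf. With arrays 1 and 1.1 averaged, 11382 differed from 28 hpf and 13992 were called at 28 hpf alone, against 18954 with all of them.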

How the data were processed

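RNA of 20 samples was labelled with Cy3 and hybridised to 1-colour Agilent zebrafish arrays. The deposited values are intensities on a linear scale, quantile normalized across arrays by the authors. The 6 adult brain arrays had sorted log2 values within 0.021 of each other at any rank and medians of 257.7 or 257.8. Neither scanner, background correction nor slide was given in the sources used here, so dim probes could not be screened against background and slide effects were not tested. The authors re-annotated probes on danRer11 and kept 1 per gene; that step was not repeated. Precision is limited by the number of arrays.

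The log2 of each deposited intensity entered a linear model (limma 3.58.1 in R 4.3.3) of the 6 adult arrays alone, mutant minus WT, two-sided, with Benjamini-Hochberg adjustment over 43603 probes, 4 residual and 1.67 prior degrees of freedom and no filter. Embryo stages were fitted alone in the same way, and differences between the effects in adult brain and in whole embryos on all 20 arrays with 6 group means. The fits were tested on simulated data. The rule named 2 probes per direction, ranked by the change on log2 of intensity plus 50 among separated, called probes; other probes are given without an identifier. Classes of switch-like and of embryo-bright probes were added after seeing the data. The comparison and its lists were chosen with earlier results of these data known. The gene lists planned for genes were not run, since probes carry no gene here.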

Additional observations from a re-analysis of the deposited data

Results flagged for a closer look

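The genotype effect of each named probe in adult brain differed from that at both embryo stages when the difference was tested (limma on all 20 arrays). This fit takes 1 spread per probe for all stages, mostly from embryo arrays, so these adjusted p may be too small for adult brain. The fit with 1 variance per group is given for counts only. Age and tissue change together between adult brain and whole embryos, so they cannot be told apart here. For A_15_P197801 the adult effect exceeded that at 3 dpf by a log2 of 3.34 (adjusted p = 0.00044) and that at 28 hpf by 4.14 (adjusted p = 6.7e-05). For A_15_P170876 the differences were 7.51 (adjusted p = 0.0043) and 8.61 (adjusted p = 0.0016), or 4.23 and 4.75 on log2 of intensity plus 50. For A_15_P161626 they were -10.19 (adjusted p = 5.5e-11) and -11.67 (adjusted p = 2.6e-11), all from limma, or -6.01 and -6.33 on log2 of intensity plus 50. Brains or embryos of at least 1 genotype were close to the floor of the scale for both of these probes, so the size of these differences depends on the floor. At 28 hpf A_15_P161626 was called higher in mutants, with a log2 difference of 1.42 (limma on that stage alone, adjusted p = 0.0061), at intensities of 17.6 to 25.8 against 4.65 to 11.3. For A_15_P556147 the differences were -5.28 (adjusted p = 2.9e-11 from limma) and -3.77 (adjusted p = 2.8e-09). The 4 probes were ranked by their adult change, which favours such differences.

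One sample lay far from the others of its group. For A_15_P170876, WT replicate 1.1 at 28 hpf read 197 and the other 3 WT arrays 2.36 to 2.77, a gap of 0.964 of the range of log2 values. Of the 8 groups of 4 arrays examined for the named probes it was the only one past the limit applied. Its other 3 arrays sat near the floor, where 1 signal above it gives a gap of nearly the whole range. How often chance would pass the limit there is not known. Groups of 3 arrays were not examined, and the adult WT brains of this probe, at 43.7, 2.37 and 2.35, also had 1 array apart.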

How the results depend on the processing

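Counts of calls depended strongly on the fit, and the cause was not tested beyond what each setting changes by construction. With all 20 arrays in the fit 15469 probes were called in adult brain, 7688 higher and 7781 lower in mutants. At an adjusted p under 0.01 there were 1816 calls, 1070 higher and 746 lower, 1271 of them at 2-fold or more. With a fold change of at least 1.5 as well, 2178 were lower. On log2 of intensity plus 50, 1291 were called at 2-fold or more. The replicate block called 2323 probes, 1339 higher and 984 lower, 1661 at 2-fold or more, and A_15_P170876 had an adjusted p of 0.054. That fit kept 31.5% of the main calls. The labels do not say whether same-numbered brains were paired. Deviations of same-numbered arrays correlated at -0.021, 0.011 and -0.047, and only mutant replicate 2 correlated best with its own number. No pairing was seen in these values, but so few arrays cannot exclude it. Leaving out single brains gave 2858 to 5004 calls, 1574 to 2628 higher, 1284 to 2376 lower and 1743 to 2378 at 2-fold or more. For the difference from 3 dpf it gave 18284 to 19155 probes and from 28 hpf 12806 to 14346. With a minimum of 1.5-fold on that difference there were 12696 and 8101 probes, and an adjusted p under 0.01 left 8828 for 28 hpf. Alternatives chosen after seeing the data are those of the probe classes, of the averaged 28 hpf arrays and of the differences between adult brain and embryo effects with 50 added. The intensity trend in the prior variance, array weights, median scaling and the removal of dim probes kept every count of adult calls within 1.5 times. Median scaling hardly alters normalized values, so it tests little. A_15_P161626 and A_15_P556147 stayed called in all 11 settings tried for each. The adult change of each named probe kept its sign in these settings. The balance of calls did reverse in places. Adult calls were 3702 higher and 3312 lower in the main fit, but lower calls outnumbered higher ones with all 20 arrays. Among probes at least 8-fold brighter in brain, rises were 53% of calls, but 32.2% with the class set by WT brains alone. Among those at least 8-fold brighter in embryos, 2-fold changes were 225 rises and 105 falls. With that class set by mutant brains alone they were 166 and 173.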

Other observations

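Several of the largest rises ranked the brains alike. A_15_P197801 was highest in mutant replicate 2, then 3, then 1, and in WT replicate 2, then 1, then 3. The same order within both genotypes was found for 7 of the 20 largest rises, itself included, for none of the 20 largest falls, for 3.38% of the probes called higher and for 3.06% of all probes. The next probe of the 20 with this order read 4608, 11271 and 7248 in the mutant brains and 318, 849 and 160 in the WT brains. The order was noticed after the values were seen, and whether these probes belong to 1 gene is not known here, since probes carry no gene.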
